A study of Mus musculus with 12 samples.

Results

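The comparison sets the 3 Tet2 KO libraries against the 3 Vav Cre libraries, 6 of the 12 libraries of the study, chosen by their genotype labels and read across all 15366 genes of the table. Both groups are LSK cells from untreated C57BL/6 mice. LSK cells are bone marrow cells sorted for the absence of lineage markers and for Sca-1 and Kit on their surface, and contain the blood stem cells together with multipotent progenitors. The Vav Cre mice carry a Cre recombinase driven by Vav sequences and nothing else, and the Tet2 KO mice carry the same Cre with both Tet2 alleles floxed (Vav Cre/ Tet2 flox/flox), so the groups share Cre and differ in floxed Tet2. Vav sequences direct expression across the blood system, so the deletion is not limited to LSK cells. The sources used here give neither the age of the mice nor whether animals were pooled, and do not say that each library is a different animal. The p-values therefore rest on the spread among these libraries, part or all of which may be technical. The other 6 libraries serve only to show whether the differences recur where the human KDM6B transgene is also present. They are KDM6B OE (Vav human KDM6B, with no Cre named) and the double lesion (Vav Cre and floxed Tet2 added to that transgene), 3 libraries each. By these labels the 2 groups differ in Cre as well as in floxed Tet2.

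TET2 is one of a family of enzymes that oxidise methylated cytosine in DNA, the first step on a route back to unmethylated cytosine. The TET2 gene is among those most often mutated in clonal blood stem cell expansions and in myeloid neoplasms. Mice without Tet2 in blood cells are known for stem cells with an advantage on transplantation and for a slow expansion of myeloid cells.

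Each of the 6 libraries held between 21935022 and 25365202 reads on the listed genes, and a gene listed at 0 may stand at up to 0.139 CPM (3 reads, counting error only). CPM are reads scaled to the effective size of the library. The RNA is poly(A) RNA amplified with a kit that does not mark strand, so reads from overlapping genes on opposite strands cannot be told apart. Counting error alone did not account for the spread of replicates, which had a chi-square per gene between 26.4 and 94.2. Genes varied more among the Vav Cre libraries (median SD 0.277 on the log2 scale) than among the Tet2 KO libraries (0.205). Y chromosome transcripts were present in library 1 of each group (62.6 and 64.6 CPM as a mean of the genes read) and near 0 in the other 4, so sex was balanced.

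The markers of the sorted fraction were present in all 6 libraries. Kit, the receptor of stem cell factor and 1 of the markers of the gate, ran from 356 to 859 CPM, and Cd34, a progenitor surface protein, stood at 930, 821 and 1050 CPM in Vav Cre and 927, 1010 and 1020 CPM in Tet2 KO. Ly6a, which encodes Sca-1, stood at 113, 107 and 78.2 CPM against 105, 180 and 114 CPM. Of genes that define mature cells, Cd3e, of the T cell receptor complex, was at most 0.34 CPM, and Slc4a1, the anion exchanger of red cells, was at most 0.171 CPM. Prg2, a granule protein of eosinophils, reached 441 CPM in Vav Cre 1 and 707 CPM in Tet2 KO 2. Tet2 KO 2 was the library with the most B cell transcripts: Cd79a, a part of the B cell receptor, stood at 49.8 CPM there and between 1.95 and 7.78 CPM in the other 5. Vav Cre 2 had the most red cell lineage transcripts, with a summed 5659 CPM over 23 erythroid and haem genes against 2923 to 3485 CPM in the other 5. In bulk RNA, fewer cells of a type and less RNA per cell cannot be told apart.

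Tet2 itself checks the labels. It lies on chromosome 3 (133463679 to 133545139, minus strand, GRCm38) and shares exon sequence with Gm42567 on the opposite strand. It stood at 82.9, 66.2 and 97.1 CPM in Vav Cre and at 31.6, 24.9 and 24.1 CPM in Tet2 KO. The groups did not overlap, and the mean fell from 82.1 ± 15.5 to 26.8 ± 4.10 CPM (SD, n = 3 each), 32.7% of the control level. An exact two-sided permutation test gave p = 0.1, the smallest that 3 against 3 allows. On the log2(CPM + 1) scale, on which all differences below are given, the difference was −1.57 ± 0.19 (SE). The value is 1 number for the whole gene and not for the floxed part, so the level that remains does not measure intact transcript.

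Across the 12569 genes tested, limma on the 6 libraries called none at an adjusted p under 0.05 (0% of the genes tested). Tet2 had the smallest p (1.7e-05, adjusted p = 0.214), and 838 genes had an unadjusted p under 0.05, 515 higher and 323 lower. edgeR's quasi-likelihood test on the reads recovered from the values also called 0 and had 771 genes at an unadjusted p under 0.05. Same-numbered libraries of the 2 groups deviated together, and a fit with the replicate number as a block, called the paired fit here, called 34 genes: 27 rose (0.215% of the genes tested) and 7 fell (0.0557%). Tet2 was among them (adjusted p = 0.00432). With 1 spread shared by all 12 libraries limma called 4 genes, Tet2, Fgf3, Pramef8 and Trim12c (0.0307%), all of them also called in the paired fit, and DESeq2 on the recovered reads called 30 (0.239%), of which 18 were shared with the paired fit. The paired count depends on which pairs enter: it was 196 without pair 1, 17 without pair 2 and 332 without pair 3, and 30, 12 and 31 of the 34 genes remained called. With all 12 libraries in the fit the count was 305 without Vav Cre 3 and 2 or 3 without any other of the 6 libraries, and with the block added limma called only Tet2. Of the 34 genes, those named below that are neither Tet2 nor among the largest differences nor among the examples of a gene list are named after their values were seen.

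**Figure D1:**
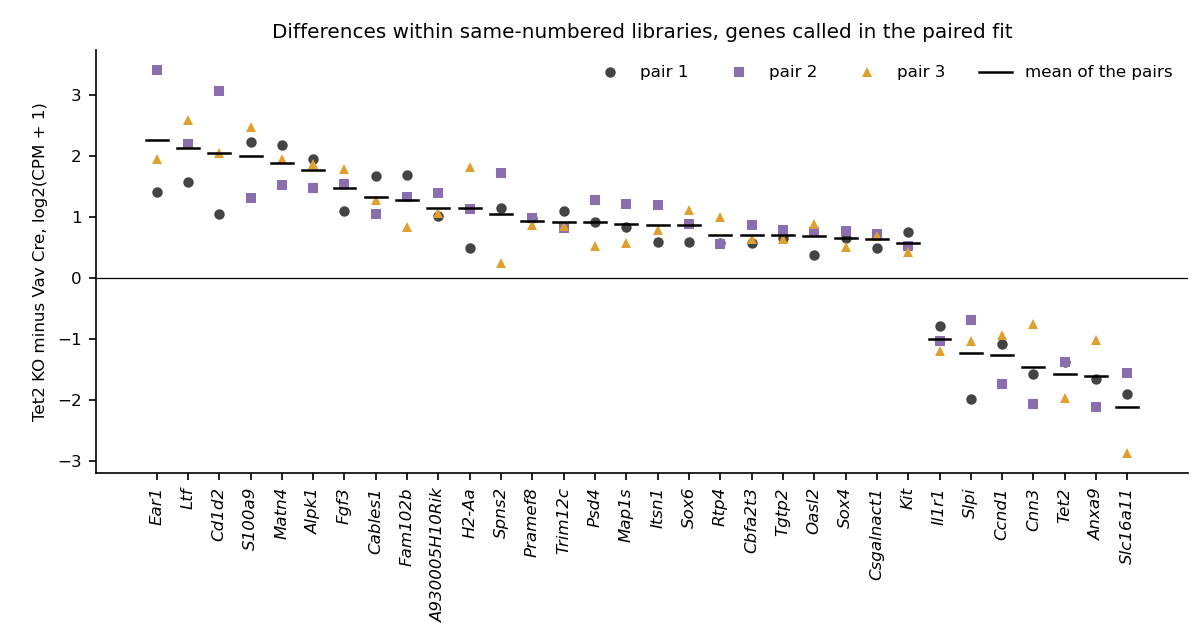
Difference of Tet2 KO minus Vav Cre on the log2(CPM + 1) scale (y axis) within each pair of same-numbered libraries for 32 of the 34 genes called in the paired fit (x axis), with the mean of the pairs as a bar. For each of the 32 genes the 3 pairs lie on the same side of 0, and Ear1 and Cd1d2 differ most between pairs.

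The calls were not spread evenly over the chromosomes. Of the 34 genes called in the paired fit, 8 lie on chromosome 3, the chromosome of Tet2, which is 23.5% of the calls against 4.76% of the tested genes with a position. All 7 besides Tet2 lie within 50 Mb of it and at lower coordinates, from 5.78 Mb (Alpk1) to 46.5 Mb (Cd1d2) away. The 173 tested genes of the chromosome that are further than 50 Mb from Tet2 gave no call. Of all genes tested 0.215% were called higher and 0.0557% lower, so 173 genes are too few for the lack of calls to be a contrast. Ppm1l, a phosphatase 64.1 Mb away, was nonetheless among the 24 largest differences, at 3.35, 8.37 and 3.25 CPM in Vav Cre and 14.8, 20.6 and 8.63 CPM in Tet2 KO (adjusted p = 0.0555 in the paired fit). Both the window and the chromosome were picked out after the values were seen. These shares describe the calls, and no enrichment was tested.

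Alpk1 is a kinase that senses bacterial sugar metabolites in the cytosol and lies at 127670310 to 127780527. It stood at 12.4, 9.29 and 9.09 CPM in Vav Cre and 50.8, 27.5 and 36.0 CPM in Tet2 KO, and rose 3.71-fold in the mean (1.76 ± 0.21 in the paired fit, adjusted p = 0.00859). Fam102b (108970997 to 109027607) stood at 21.4, 21.1 and 24.4 CPM against 70.8, 54.1 and 44.5 CPM and rose 2.53-fold (adjusted p = 0.0271). Cd1d2, 1 of 2 mouse Cd1d genes, stood at 17.2, 4.30 and 4.44 CPM against 36.7, 43.1 and 21.4 CPM (adjusted p = 0.0321). Since its neighbour Cd1d1 is a close copy, reads of the pair may have been split. The unnamed transcript A930005H10Rik, whose exons overlap Dph5 on the opposite strand, stood at 33.5, 30.2 and 19.2 CPM against 68.6, 81.1 and 41.1 CPM (adjusted p = 0.0182).

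Cnn3, an actin-binding calponin, and Anxa9, of the annexin family, fell. Cnn3 (121426497 to 121458207) stood at 170, 110 and 132 CPM in Vav Cre and 56.5, 25.3 and 78.1 CPM in Tet2 KO, with no overlap (−1.46 ± 0.19 in the paired fit, adjusted p = 0.0163). Anxa9 (95296096 to 95307176) stood at 15.7, 21.7 and 27.6 CPM against 4.29, 4.26 and 13.1 CPM (−1.60 ± 0.27, adjusted p = 0.037). Exons of Anxa9 overlap those of 6330562C20Rik and Mindy1. The remaining call on the chromosome, S100a9, is described with the granule genes.

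The double lesion and KDM6B OE libraries, none of which enter the comparison above, also differ in floxed Tet2, and by their labels in Vav Cre. Effects of Cre and of floxed Tet2 cannot be told apart in that comparison. The genes near Tet2 differed there too. Alpk1 stood at 33.9, 9.83 and 6.83 CPM in KDM6B OE and 57.8, 54.4 and 46.2 CPM in the double lesion, and Fam102b at 48.3, 23.9 and 20.9 CPM against 65.8, 71.2 and 70.0 CPM. Anxa9 stood at 17.7, 23.8 and 18.5 CPM against 5.41, 4.23 and 5.64 CPM. KDM6B OE 1 was set apart from the other 2 libraries of its group in the direction of the floxed groups for Alpk1, Fam102b, Cd1d2 (21.7 against 3.81 and 5.54 CPM), A930005H10Rik (39.2 against 19.6 and 21.4 CPM) and Cnn3 (44.5 against 82.8 and 72.7 CPM). Tet2 in that library was at 64.9 CPM, against 87.6 and 84.5 CPM in the other 2. The labels give KDM6B OE 1 no floxed allele. Its genotype at Tet2 was not tested, so values of the double lesion minus KDM6B OE are also given without it, an alternative chosen after seeing the data. Without it the difference was 2.54 in place of 1.90 for Alpk1, 1.58 in place of 1.22 for Fam102b, 2.74 in place of 2.07 for Cd1d2 and −1.37 in place of −1.24 for Tet2. The library was left out for its values at these genes, so larger differences for them were fixed in advance and are no support. Among Tet2 KO libraries, Tet2 KO 3 was the one nearest to Vav Cre for Anxa9, Cnn3, Cd1d2, Fam102b and A930005H10Rik.

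Genes apart in both comparisons by at least 2-fold the same way (1 or more on the log2(CPM + 1) scale, groups not overlapping) numbered 20 of those with a position, and 8 of them lie on chromosome 3: Tet2, Alpk1, Fam102b, Cd1d2, A930005H10Rik, Anxa9, Bcar3 and Sh3d19. The last 2 were picked out after their values were seen. Bcar3, a signalling adaptor, was at 0.382, 0.412 and 3.29 CPM in Vav Cre and 5.44, 7.41 and 4.89 CPM in Tet2 KO, and Sh3d19, an adaptor with SH3 domains, at 11.0, 10.2 and 12.6 CPM against 2.96, 1.02 and 8.99 CPM. Groups were apart the same way in both comparisons for 5.74% of the tested genes within 50 Mb of Tet2, for 1.16% further away on the chromosome, and for 2.64% on other chromosomes. Without KDM6B OE 1 these shares were 7.23%, 2.31% and 4.46%. Every library with floxed Tet2 carries the chromosome segment around the floxed allele, so loss of Tet2 and that segment cannot be told apart here.

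**Figure D2:**
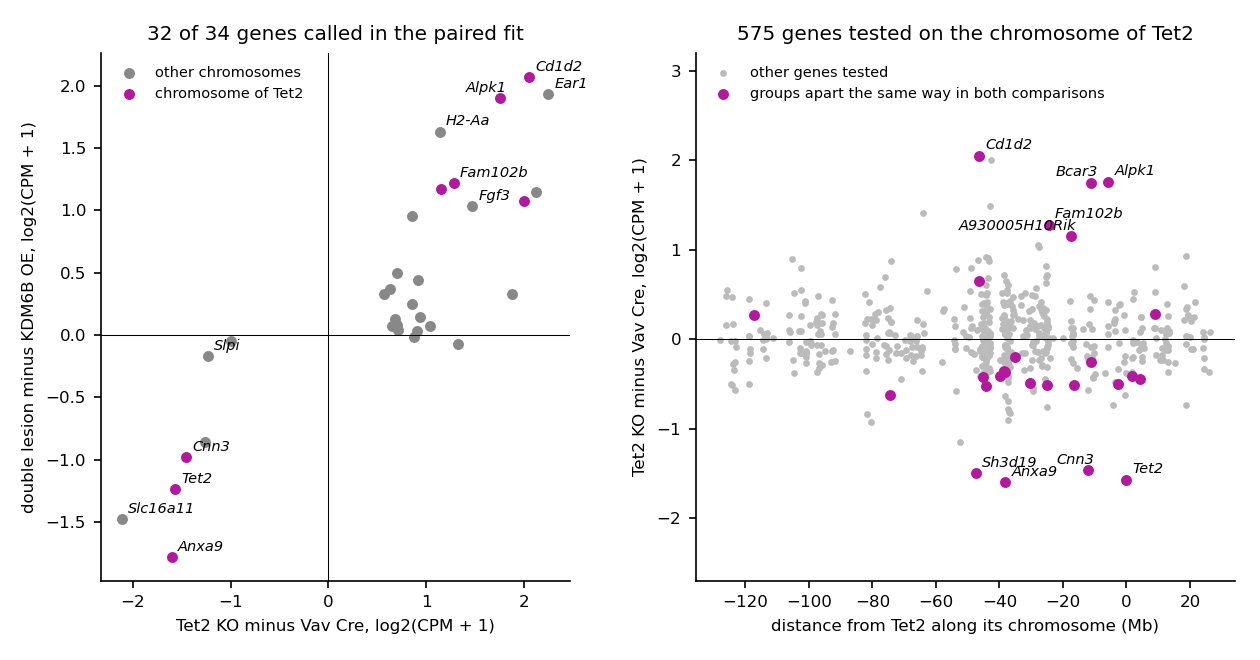
Left, 32 of the 34 genes called in the paired fit, with the difference of Tet2 KO minus Vav Cre (x axis) against double lesion minus KDM6B OE (y axis), both on the log2(CPM + 1) scale, chromosome 3 in magenta. Right, the 575 genes tested on chromosome 3 by distance from Tet2 in Mb (x axis) and difference of Tet2 KO minus Vav Cre (y axis), with genes whose groups are apart the same way in both comparisons in magenta. Genes that differ most on chromosome 3, such as Cd1d2, Bcar3, Alpk1 and Anxa9, lie within 50 Mb of Tet2.

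Elsewhere in the genome, genes of the interferon response lay higher. Interferons signal through receptors and JAK kinases to transcription factors that bind interferon-stimulated response elements of antiviral genes. Of 47 interferon response genes tested, 43 had positive differences, with a median of 0.52 against 0.03 for all genes tested. For 19 of the 47 each Tet2 KO library lay above each Vav Cre library, and for 0 below, where all genes tested had 6.79% above and 5.77% below. In the paired fit 3 members rose, Oasl2 and Rtp4 among them. The list's summed level was 2769, 3130 and 2861 CPM in Vav Cre and 3388, 3843 and 4250 CPM in Tet2 KO.

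Oasl2, an antiviral oligoadenylate synthetase-like protein, stood at 112, 107 and 106 CPM in Vav Cre and 147, 180 and 197 CPM in Tet2 KO (0.68 ± 0.12 in the paired fit, adjusted p = 0.0451). Rtp4, which lowers antiviral signalling, overlapped between the groups with 69.1, 104 and 72.1 CPM against 104, 153 and 144 CPM, and rose within each pair (adjusted p = 0.0451). Iigp1, a GTPase that attacks the vacuoles of intracellular parasites, stood at 42.1, 45.8 and 25.5 CPM against 70.4, 60.5 and 87.8 CPM, with no call (adjusted p = 0.0724 in the paired fit). Ifitm3, the most abundant member in CPM, was at 325, 409 and 298 CPM against 284, 371 and 374 CPM, with overlap. The list median lay between 0.37 and 0.58 when any 1 library was left out.

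Among genes near these in function, Tgtp2, a T cell-specific GTPase of the interferon-induced family, stood at 80.9, 76.7 and 75.4 CPM in Vav Cre and 128, 133 and 118 CPM in Tet2 KO (0.70 ± 0.12, adjusted p = 0.037 in the paired fit). Its near-identical neighbour Tgtp1 lies 63.0 kb away on chromosome 11, so the split of reads between them is uncertain. Trim12c, of the tripartite motif family of antiviral factors, lies on chromosome 7 (104338754 to 104353362) in a cluster with Trim12a, 23.3 kb away, and Trim30a, 55.7 kb away. It stood at 25.9, 27.7 and 27.5 CPM against 56.6, 49.4 and 50.4 CPM and rose 1.93-fold (adjusted p = 0.0444 in the paired fit). Gm27995 shares exons with it on the same strand. Of 18 PRAME and TRIM family genes tested, 6 lay above (33.3%) and 1 below (5.56%) without overlap, against 6.79% and 5.77% of all genes tested. The list joins 2 families, was drawn up with earlier results known and counts the called genes Trim12c and Pramef8 among the 6. Its share thus restates those calls in part. The list median was 0.31, and 0.21 without Vav Cre 3. Pramef8, of the PRAME family, rose from 24.7, 21.6 and 24.8 CPM to 49.6, 43.5 and 45.9 CPM (1.96-fold, adjusted p = 0.0446 in the paired fit). Trim28, a co-repressor of endogenous retroviruses and the most abundant TRIM gene in CPM, had a difference of −0.06 ± 0.12.

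The promoters of these genes are shown because the genes lay higher together and the response element of the interferon pathway can be read in them. RefSeq windows (GRCm38.p6) from 250 bases before to 50 bases after each gene start were searched on both strands for GAAANNGAAA, the core of the interferon-stimulated response element. Of the 47 list members 35 matched a window and 21 of those held the motif (60%), against 3.99% of the 27025 genes with a window. In the list, the motif was present in 7 of 14 matched genes whose Tet2 KO libraries all lay above Vav Cre and in 14 of 21 whose groups overlapped. Over all tested genes it was present in 6.03% of those above without overlap and 3.67% of those below. A match describes letters in the window and shows no binding. The windows of 70 bases below run 5′ to 3′ on the strand of the gene, with the motif or its reverse complement in capitals. They belong to Trim12c (chr7:104353339-104353408, minus strand), Tgtp2 (chr11:49064243-49064312, minus), Igtp (chr11:58199492-58199561, plus), Irgm1 (chr11:48871411-48871480, minus) and Oas3 (chr5:120777695-120777764, minus).
Trim12c: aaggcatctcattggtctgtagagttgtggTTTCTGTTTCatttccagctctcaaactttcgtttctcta
Tgtp2: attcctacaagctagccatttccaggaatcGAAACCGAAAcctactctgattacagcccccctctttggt
Igtp: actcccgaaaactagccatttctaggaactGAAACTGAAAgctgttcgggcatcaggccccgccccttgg
Irgm1: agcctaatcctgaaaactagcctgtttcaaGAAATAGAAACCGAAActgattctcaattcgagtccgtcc
Oas3: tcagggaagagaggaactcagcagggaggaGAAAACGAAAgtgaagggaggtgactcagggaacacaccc

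Irgm1 holds 2 overlapping matches and the other 4 genes 1 each. Igtp and Irgm1 encode immunity-related GTPases, and Oas3 makes the second messenger that activates RNase L. Igtp stood at 106, 76.8 and 80.3 CPM in Vav Cre and 130, 126 and 158 CPM in Tet2 KO (0.65 ± 0.17 without the block, adjusted p = 0.0652 with it). Irgm1 stood at 157, 188 and 131 CPM against 214, 262 and 251 CPM (adjusted p = 0.0551 with the block). Igtp, Irgm1 and Oas3 were chosen for their windows after their values were seen.

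MHC class II genes, which present peptides on antigen-presenting cells, were all positive, 9 of 9 tested, with a median of 0.80. The groups were apart for 1 of them. H2-Aa, an alpha chain, stood at 95.7, 52.9 and 26.4 CPM in Vav Cre and 135, 117 and 94.9 CPM in Tet2 KO, overlapped by Vav Cre 1, and rose within the pairs (1.14 ± 0.19, adjusted p = 0.037). H2-Eb1, a beta chain, stood at 68.2, 43.0 and 18.1 CPM against 85.0, 99.9 and 68.7 CPM (adjusted p = 0.0555 in the paired fit). Cd74, the invariant chain, was at 285, 242 and 118 CPM against 317, 1070 and 255 CPM, highest in Tet2 KO 2, the library with the most B cell transcripts. The median was 0.50 without that library and 1.16 without Vav Cre 1. In the B cell list the groups were apart upward for 1 of 15 genes and downward for 1 (6.67% each, against 6.79% and 5.77% of all genes tested). The gene apart upward was under 1 CPM in each Vav Cre library and passed the filter through Tet2 KO, so it had to be apart. The summed level of the B cell list was 207, 376 and 175 CPM in Tet2 KO and 212 to 238 CPM in Vav Cre. The part of B cells in the class II values was not tested. MHC class I and peptide loading genes had a median of 0.13, with 1 of 14 apart upward (7.14%, near the 6.79% of all genes) and 0 downward.

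Some genes of neutrophil granules were present at trace levels in Tet2 KO. S100a9, a subunit of calprotectin, was at 0, 1.01 and 0.0879 CPM in Vav Cre and 3.64, 3.98 and 5.01 CPM in Tet2 KO, and rose in the paired fit (adjusted p = 0.0481). Ltf, lactoferrin of secondary granules, was at 1.36, 0 and 0 CPM against 6.00, 3.57 and 5.01 CPM (adjusted p = 0.037). S100a8, the partner of S100a9, was at 0.212, 0.686 and 0.264 CPM against 1.84, 2.69 and 4.41 CPM (adjusted p = 0.0869). Of 23 granule genes in the table, 17 were tested and 6 were too low. The 6 tested genes whose Tet2 KO libraries all lay above Vav Cre (S100a8, S100a9, Camp, Ltf, Ngp and Mmp8) had at most 1 Vav Cre library over 1 CPM. They passed the filter through the Tet2 KO libraries and so had to differ, and neither their number nor the calls of S100a9 and Ltf describe the granule genes as a group. Mpo, a primary granule enzyme already made by progenitors, was at 1720, 3040 and 4100 CPM against 2250, 4160 and 6200 CPM. Its groups overlapped widely, and it was higher within each pair without a call (adjusted p = 0.0652 in the paired fit). Whether a few mature neutrophils passed the sort was not tested.

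Among mast cell, basophil and eosinophil genes the median was 0.57. The groups were apart upward for 4 of 17 (23.5%) and downward for 1 (5.88%), against 6.79% and 5.77% of all genes tested. Kit, a marker of the LSK gate, was 1 of the 4, and others lay near the filter, so the upward share does not describe these cell types. Ear1, an eosinophil ribonuclease, was at 0.0424, 0.137 and 0 CPM in Vav Cre and 1.76, 11.1 and 2.86 CPM in Tet2 KO, the largest positive difference by the rule (2.25 ± 0.42, adjusted p = 0.0497 in the paired fit). Ear1 was under 1 CPM in each Vav Cre library and passed the filter through Tet2 KO, so its groups had to be apart. Another gene apart upward, at 0, 1.01 and 0 CPM in Vav Cre and at most 1.63 CPM in Tet2 KO, lay near that filter. Near-identical family members and Ear-ps9, which shares exons, make the reads of Ear1 uncertain. Slc18a2, a monoamine transporter, stood at 119, 95.9 and 151 CPM against 177, 220 and 183 CPM without a call. Il1rl1, the interleukin receptor ST2 of mast cells, went the other way, from 7, 10.9 and 10.9 CPM to 3.09, 2.55 and 4.57 CPM (−1.27 ± 0.31, adjusted p = 0.0785 in the paired fit). Prg2 stood at 441, 14.1 and 7.56 CPM in Vav Cre and 127, 707 and 411 CPM in Tet2 KO, overlapped by Vav Cre 1 (3.11 ± 1.27, adjusted p = 0.146 in the paired fit). The granule genes Prg3 (2.47) and Epx (2.74) were likewise high in Vav Cre 1 and low in the other 2 Vav Cre libraries. The list median was 0.22 without Vav Cre 3 and −0.37 within pair 1. The part of eosinophils in these values was not tested.

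Monocyte and macrophage genes were positive in 26 of 28, with a median of 0.25, but only 2 were apart, both upward, a share near that of all genes. Cybb, which encodes the catalytic part of the phagocyte oxidase, stood at 3.10, 6.50 and 6.02 CPM in Vav Cre and 6.09, 49.9 and 19.6 CPM in Tet2 KO. Cx3cr1, a chemokine receptor, was at 6.28, 9.74 and 5.18 CPM against 9.35, 14.7 and 19.2 CPM. Lyz2, lysozyme, had a difference of 0.14 ± 0.14. Their list median lay between 0.12 and 0.56 with 1 library left out. Innate immune and NF-kB genes had a median of 0.25, which was 0.11 without Vav Cre 2 and −0.01 within pair 1. They were apart upward for 4 of 26 (15.4%) and downward for 1 (3.85%), against 6.79% and 5.77% of all genes tested. Tnfaip3, an inhibitor of NF-kB, was among those upward, at 5.73, 9.20 and 8.92 CPM against 17.8, 14 and 13.9 CPM. Il1r1, the receptor of interleukin 1, fell from 71.7, 47.2 and 46.9 CPM to 41.5, 22.4 and 20.0 CPM (−1 ± 0.16, adjusted p = 0.037 in the paired fit).

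**Figure D3:**
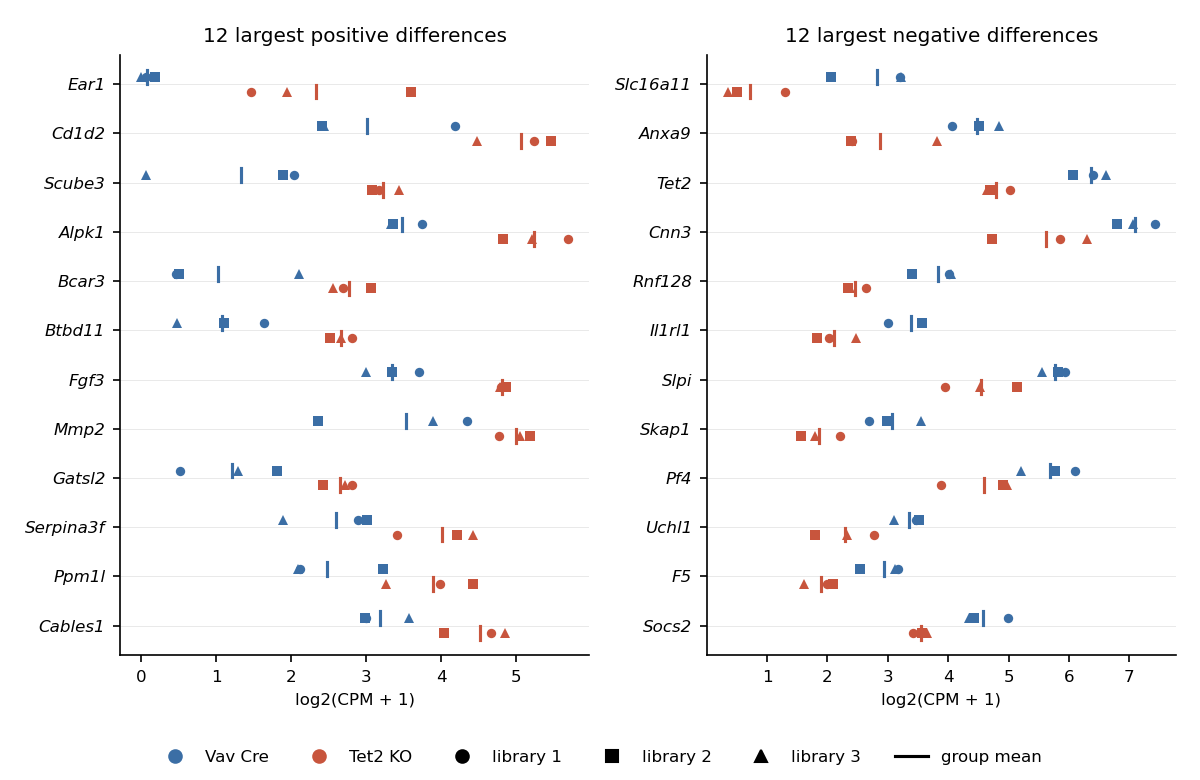
Level of each library as log2(CPM + 1) (x axis) for the 12 largest positive and the 12 largest negative differences by the rule (y axis), Vav Cre in blue and Tet2 KO in red, symbols for the replicate number and bars for the group means. The rule required groups that do not overlap, so every red group lies to 1 side of its blue group, and Ear1 is spread most within Tet2 KO.

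Kit and several transcription factors of stem and progenitor cells also rose in the paired fit. Kit stood at 506, 356 and 500 CPM in Vav Cre and 859, 512 and 667 CPM in Tet2 KO, without overlap (0.57 ± 0.10, adjusted p = 0.0451). It was lowest in library 2 of each group. Of 25 cytokine receptors, 3 lay above (12%) and 2 below (8%) without overlap, against 6.79% and 5.77% of all genes tested. Their median was 0.21, moving to 0.01 without Tet2 KO 3, 0.05 without Vav Cre 2 and 0.33 without Tet2 KO 2. The list of long-term stem cell genes had 1 of 29 apart upward and 0 downward (median 0.11, and −0.04 to 0.30 with 1 library left out), a share below that of all genes. Among its other examples, Tek, the angiopoietin receptor, stood at 21.7, 17.7 and 35 CPM against 41.6, 30.7 and 41.9 CPM, and Hmga2, a chromatin protein of fetal stem cells, at 16.1, 17.8 and 16.1 CPM against 20.9, 27.4 and 22.9 CPM.

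Sox4, a factor of early lymphoid commitment, stood at 449, 299 and 554 CPM in Vav Cre and 711, 510 and 792 CPM in Tet2 KO and rose within each pair (adjusted p = 0.0291). Sox6, another SOX factor, stood at 57.9, 31.2 and 23 CPM against 87.7, 58.4 and 50.9 CPM (adjusted p = 0.0451), and the co-repressor Cbfa2t3 (ETO2) at 102, 77.4 and 105 CPM against 153, 142 and 164 CPM (adjusted p = 0.037). Lineage transcription factors as a list had 2 of 28 apart upward (7.14%, near the 6.79% of all genes tested) and 0 downward. Myb, a regulator of progenitor growth, stood within narrow limits at 490, 488 and 502 CPM against 558, 563 and 571 CPM, a difference of 0.19 ± 0.11 that did not pass. Gata2, of early progenitors, stood at 189, 95.4 and 149 CPM against 207, 180 and 184 CPM.

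Among the other genes that rose in the paired fit, Psd4, an exchange factor of ARF GTPases, stood at 53.8, 38.7 and 61.2 CPM against 102, 95.6 and 89.0 CPM (adjusted p = 0.037). Spns2, the exporter of sphingosine 1-phosphate, stood at 195, 96.6 and 397 CPM against 433, 320 and 473 CPM (adjusted p = 0.0497) and overlapped because of Vav Cre 3. Matn4, a matrilin of the extracellular matrix, stood at 4.5, 0.915 and 2.59 CPM against 23.7, 4.49 and 12.9 CPM (adjusted p = 0.0321). Cables1, which links cyclin-dependent kinases to their regulators, stood at 7, 6.91 and 10.9 CPM against 24.4, 15.4 and 27.9 CPM (adjusted p = 0.0451). The remaining genes were Itsn1, an endocytic scaffold, Csgalnact1, an enzyme of chondroitin sulphate synthesis, and Map1s, a microtubule-associated protein (adjusted p from 0.0444 to 0.0497).

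Fgf3, a secreted fibroblast growth factor, stood at 12.1, 9.15 and 6.99 CPM in Vav Cre and 26.9, 28.3 and 26.5 CPM in Tet2 KO, a rise of 2.89-fold (1.47 ± 0.23, adjusted p = 0.0321 in the paired fit). Its neighbour Ccnd1, cyclin D1 of the G1 phase, lies 85.5 kb away on chromosome 7 and fell, from 61.8, 36.6 and 19.2 CPM to 28.7, 10.2 and 9.54 CPM (−1.26 ± 0.22, adjusted p = 0.0375). The Ccnd1 groups overlapped, and each pair moved down. Of 10 tested fibroblast growth factor, receptor and feedback genes, Fgf3 alone was apart upward (10%) and 2 were apart downward (20%). All genes tested had 6.79% above and 5.77% below, and counts this small do not describe the family. The 2 were Spry4, a feedback inhibitor, at 3.74, 1.1 and 2.28 CPM against 0.857, 0.417 and 0.437 CPM, and Frs2, an adaptor of the receptors. Spry4 was under 1 CPM in each Tet2 KO library and passed the filter through Vav Cre, so its groups had to be apart.

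Slpi and Slc16a11 also fell in the paired fit. Slpi, a secreted inhibitor of neutrophil elastase, stood at 60.1, 55.7 and 46.2 CPM in Vav Cre and 14.4, 34.2 and 22.1 CPM in Tet2 KO (−1.23 ± 0.22, adjusted p = 0.0451). Slc16a11, a monocarboxylate transporter, stood at 8.19, 3.16 and 8.35 CPM against 1.46, 0.417 and 0.278 CPM (−2.11 ± 0.36, adjusted p = 0.037), the largest negative difference by the rule.

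Among the 24 largest differences, most of the others had no call in the paired fit or in DESeq2. On the positive side Scube3, a secreted signalling protein, stood at 3.10, 2.70 and 0.0439 CPM against 8.02, 7.46 and 9.86 CPM, and Mmp2, a gelatinase, at 19.4, 4.12 and 13.9 CPM against 26.3, 35.4 and 32.3 CPM. Btbd11, Gatsl2, Serpina3f and Ppm1l had differences of 1.41 to 1.59. On the negative side Pf4, platelet factor 4, stood at 67.2, 53.5 and 36.0 CPM against 13.7, 29.0 and 30.5 CPM, and Skap1, an adaptor of T cells, at 5.43, 6.95 and 10.7 CPM against 3.64, 1.95 and 2.47 CPM. Uchl1, a deubiquitinase, and F5, coagulation factor V, had differences of −1.06 and −1.04. Rnf128, an E3 ubiquitin ligase, at 15.2, 9.56 and 15.6 CPM against 5.23, 4.08 and 4.17 CPM, and Socs2 were called by DESeq2 (adjusted p = 0.00271 and 0.0239).

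SOCS proteins restrain JAK and STAT signalling, and their genes differed in opposite directions. Socs2, which damps growth hormone and STAT5 signals, stood at 30.6, 20.4 and 19.2 CPM in Vav Cre and 9.69, 10.9 and 11.5 CPM in Tet2 KO (−1.03 ± 0.25, adjusted p = 0.0785 in the paired fit). Socs3, which damps STAT3 signals, stood at 4.41, 5.22 and 6.06 CPM against 11.2, 8.38 and 9.90 CPM, and Pim2, a survival kinase induced by STAT5, at 83.4, 73.1 and 59.7 CPM against 91.2, 124 and 132 CPM. Neither passed. Of 21 genes in the list (median 0.17, and 0.27 without Vav Cre 3), 5 lay above (23.8%) and 3 below (14.3%) without overlap. All genes tested had 6.79% above and 5.77% below. Immediate early genes had a median of 0.20, which ran from 0.08 without Vav Cre 2 to 0.42 without Tet2 KO 1 and was −0.21 within pair 1. They were apart upward for 4 of 30 (13.3%), Ier5 among them at 16.3, 16.6 and 15.9 CPM against 27, 27.3 and 24.2 CPM. Of 26 TGF-beta pathway genes (median 0.24, 0.10 without Vav Cre 2 and 0.16 without Vav Cre 3), 3 were apart upward (11.5%), Ltbp3, which stores latent TGF-beta, at 34.6, 19.4 and 29.3 CPM against 66.9, 39.5 and 47.5 CPM, with Eng and Smad3.

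In the list of 18 methylation writers, erasers, readers and related enzymes the median was 0.03, and Tet2 was the only member whose groups were apart. That is 5.56% below, near the 5.77% of all genes tested. Tet3, another TET enzyme, stood at 26.1, 31.1 and 49.7 CPM against 38.5, 42.9 and 52.6 CPM, and Dnmt3a, a de novo DNA methyltransferase, at 72.5, 44.0 and 141 CPM against 136, 106 and 153 CPM, both with overlap. Among 39 drivers of myeloid neoplasia, 2 lay above (5.13%) and 5 below (12.8%) without overlap, against 6.79% and 5.77% of all genes tested. Tet2 and the cohesin subunit Smc3 (355, 386 and 327 CPM against 263, 273 and 296 CPM) were among those below.

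Early lymphoid genes had a median of −0.28, which was −0.12 without Vav Cre 1 or without Tet2 KO 2. The groups were apart upward for 0 of 17 and downward for 2 (11.8%), where all genes tested had 6.79% above and 5.77% below. The list's only call in the paired fit was Sox4, which rose. Cd48, a surface protein of progenitors, stood at 242, 285 and 229 CPM against 170, 195 and 205 CPM, and Ccr9, a thymus homing receptor, at 11.4, 4.67 and 4.83 CPM against 2.92, 3.29 and 2.70 CPM. Dntt, the terminal transferase of lymphoid progenitors, was lower in each pair (1010, 556 and 992 CPM against 854, 346 and 580 CPM, adjusted p = 0.0555 in the paired fit). Megakaryocyte genes were split, 2 above and 2 below of 25 (8% each, near the shares of all genes), with F2r, a thrombin receptor, at 54.7, 36.6 and 62.1 CPM against 69.3, 100 and 76.4 CPM. The 23 erythroid genes had 1 apart upward and a median of −0.09, which ran from −0.37 to 0.17 with 1 library left out. Of 32 p53 target and apoptosis genes, 5 lay above (15.6%) and 1 below (3.12%). Eda2r, a p53 target receptor, was at 0, 0.0457 and 0 CPM in Vav Cre and 1.24, 2.04 and 1.71 CPM in Tet2 KO (DESeq2, adjusted p = 0.0113). Eda2r passed the filter through the Tet2 KO libraries alone, so its groups had to be apart. Bcl2l11, the death factor BIM, stood at 9.42, 11.8 and 10.1 CPM against 19.1, 14.4 and 17.7 CPM.

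**Figure D4:**
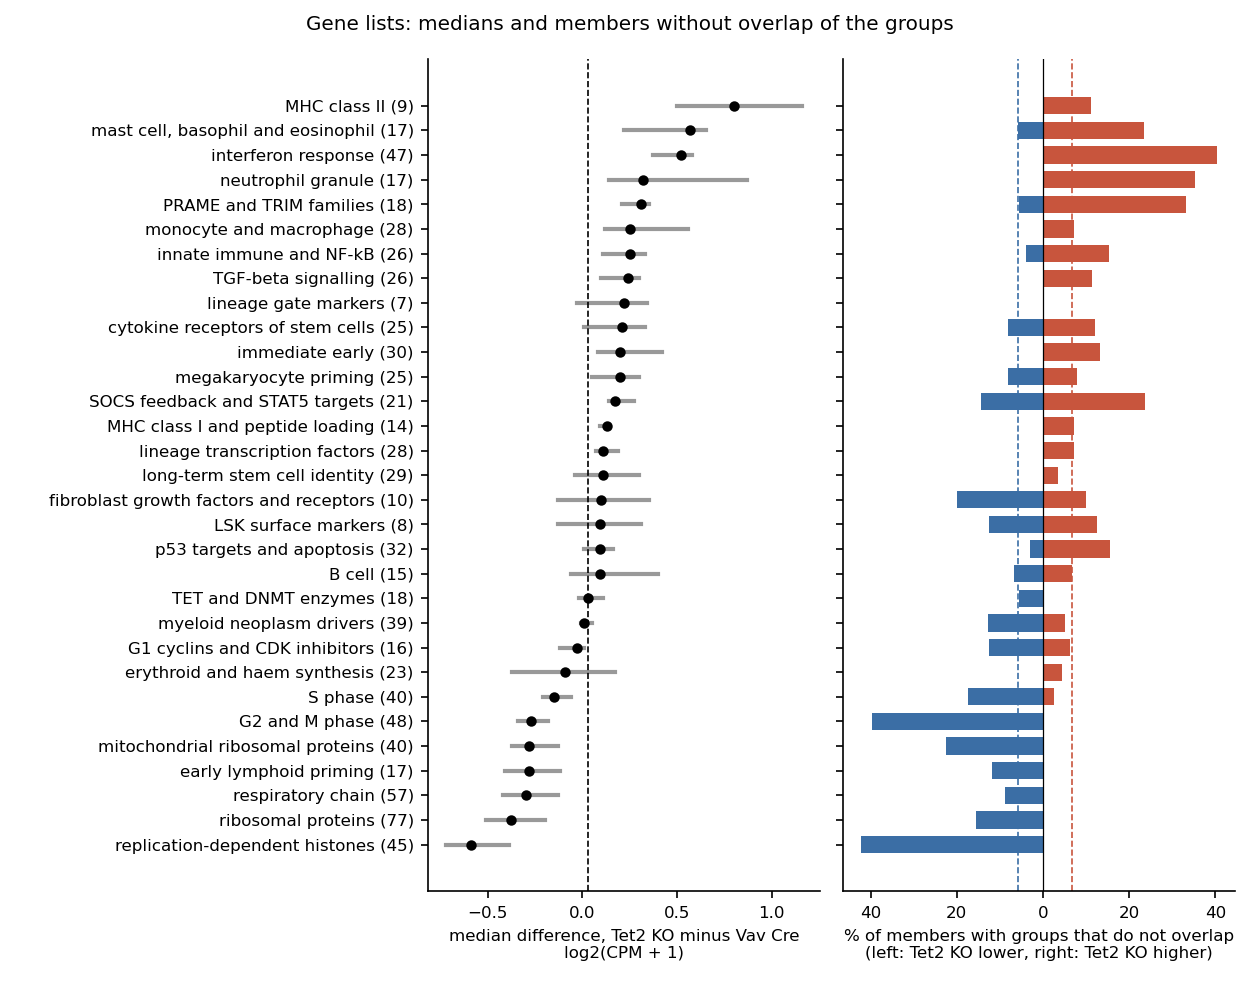
Left, the median difference of Tet2 KO minus Vav Cre on the log2(CPM + 1) scale for 31 gene lists (y axis, number of genes tested in parentheses), with the range of that median when 1 library is left out as a grey line and the median of all genes dashed. Right, the share of members in percent whose groups do not overlap, lower to the left and higher to the right, with the shares of all genes tested dashed (5.77% and 6.79%). Interferon response genes and replication-dependent histones have the largest shares, on opposite sides.

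Genes of cell division lay lower. Of 48 G2 and M phase genes, 19 lay below without overlap (39.6%) and 0 above, against 5.77% and 6.79% of all genes tested. The median of the list was −0.27 (−0.18 without Tet2 KO 2), and 44 of 48 differences were negative. No member passed in either fit. Cenpf, a kinetochore protein, stood at 231, 280 and 247 CPM in Vav Cre and 172, 164 and 196 CPM in Tet2 KO (−0.51 ± 0.13, adjusted p = 0.0724 in the paired fit). Cdca8, of the chromosomal passenger complex, stood at 314, 395 and 310 CPM against 225, 232 and 270 CPM, and Top2a, the mitotic topoisomerase, at 687, 793 and 625 CPM against 557, 497 and 596 CPM. The median within pairs was −0.23, −0.53 and −0.03, so the third pair contributed least.

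S phase genes had a median of −0.15, with 1 of 40 above (2.5%) and 7 below (17.5%), against 6.79% and 5.77% of all genes tested. The median was −0.06 without Tet2 KO 2, −0.02 within pair 1 and −0.36 within pair 2. Clspn, a checkpoint adaptor, stood at 54.2, 74.7 and 66.5 CPM against 45.6, 36.8 and 49.2 CPM, and Dut, which keeps uracil out of DNA, at 288, 431 and 273 CPM against 199, 232 and 237 CPM. Mcm6, of the replicative helicase, was at 759, 743 and 914 CPM against 939, 809 and 960 CPM. Among G1 cyclins and inhibitors 1 of 16 was above (6.25%) and 2 below (12.5%), Cdk4, the partner of D cyclins, at 873, 1060 and 949 CPM against 714, 803 and 798 CPM.

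Replication-dependent histone genes had a median of −0.59 (−0.39 without Tet2 KO 1), with 44 of 45 differences negative. Without overlap 19 of 45 lay below (42.2%) and 0 above, against 5.77% and 6.79% of all genes tested. The summed level of the list was 1445, 1910 and 1100 CPM in Vav Cre and 762, 1074 and 1016 CPM in Tet2 KO, with the third pair nearly level. Hist2h2bb, an H2B gene, stood at 15, 18.3 and 15 CPM against 7.72, 7.32 and 12.4 CPM (adjusted p = 0.163 in the paired fit), and Hist1h2bp at 4.2, 7.87 and 4 CPM against 1.97, 2.73 and 1.83 CPM. Hist1h2bk stood at 5.18, 7.82 and 6.55 CPM against 2.01, 3.75 and 3.46 CPM (adjusted p = 0.163 in the paired fit). Transcripts of these genes mostly lack a poly(A) tail and come from near-identical copies, so both the level and the split between copies are uncertain here.

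Ribosomal protein genes were all negative, 77 of 77, with a median of −0.38, 12 below without overlap (15.6%, against 5.77% of all genes tested) and 0 above. Rpsa, a protein of the small subunit, stood at 653, 865 and 754 CPM against 517, 606 and 559 CPM (−0.43 ± 0.14, adjusted p = 0.0724 in the paired fit). Rps13 stood at 276, 390 and 264 CPM against 192, 251 and 202 CPM. The summed level was 44428, 59775 and 41738 CPM in Vav Cre and 33801, 44214 and 35412 CPM in Tet2 KO, highest in Vav Cre 2, the library with the most erythroid transcripts. Without that library the median was −0.20. Mitochondrial ribosomal proteins (40 genes, median −0.28, 9 below or 22.5%) and the respiratory chain (57 genes, median −0.30, 5 below or 8.77%) were also lower, and neither had a member above without overlap. Examples are Mrps10 at 100, 125 and 99.2 CPM against 77.3, 78.9 and 84.1 CPM and Cox5a, a cytochrome oxidase subunit, at 236, 332 and 247 CPM against 177, 224 and 196 CPM. Without Vav Cre 2 both medians were −0.13. The part of erythroid cells in these values was not tested.

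**Figure D5:**
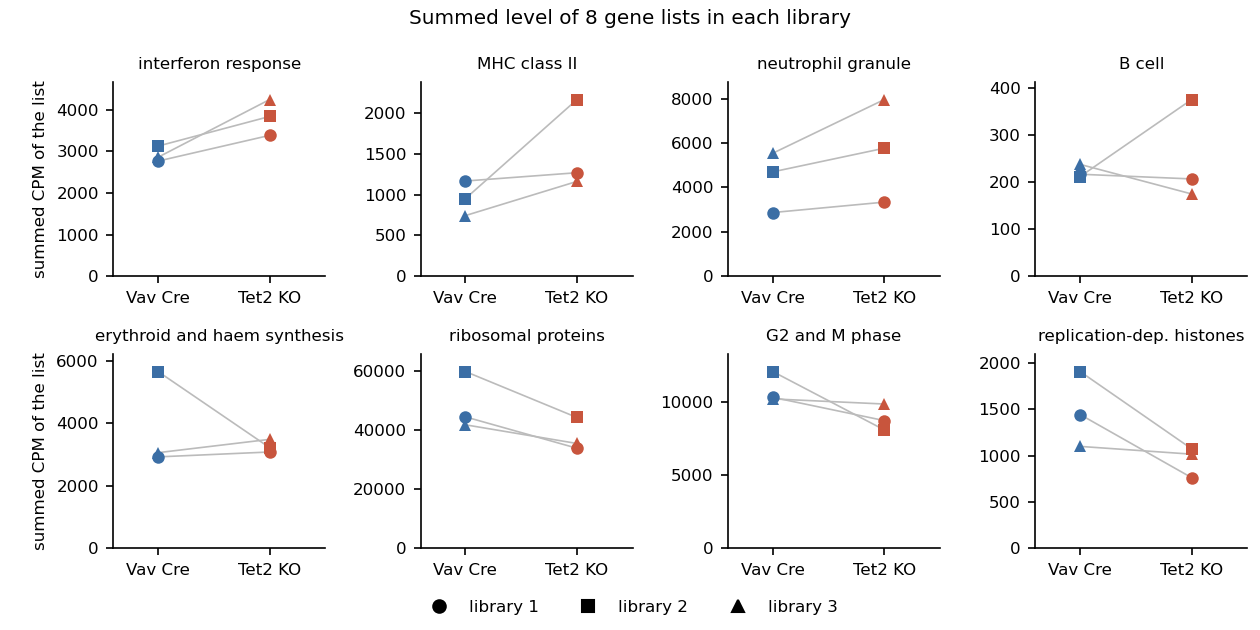
Summed CPM (y axis, from 0) of the tested genes of 8 lists in each library of Vav Cre and Tet2 KO (x axis), same-numbered libraries joined by lines and marked by symbol. Interferon response sums are higher and ribosomal protein sums lower in Tet2 KO in each pair, while B cell genes stand out in Tet2 KO 2 and erythroid genes in Vav Cre 2.

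The double lesion against KDM6B OE, which shares no library with this comparison, had no gene past the test in limma with the spread of all 12 libraries (0%, with 771 genes at an unadjusted p under 0.05). No other tool was run on it. Without KDM6B OE 1, which leaves 2 libraries in that group, limma called 5 genes (0.0385%, 833 at an unadjusted p under 0.05), and 3 of them, Tet2, Fam102b and Alpk1, lie on chromosome 3. The others were Lpcat2 and Scin, named after their values were seen. KDM6B OE 1 was left out for its values at genes near Tet2, so the calls on chromosome 3 follow in part from that choice. With KDM6B OE 1 kept, 8.98% of all genes tested lay above and 9.72% below without overlap. Of the 34 genes called in the paired fit, 32 had the same sign in the double lesion against KDM6B OE (94.1%), against 62.7% of all genes tested in both. The exceptions were Cables1 (−0.07) and Map1s (−0.02). Of the 24 largest differences, 17 had the same sign (70.8%). Among genes apart without overlap in Tet2 KO the share was 65.3% of those higher and 77.1% of those lower. Without KDM6B OE 1 the count for the 34 genes was again 32, against 63.5% of all genes. Differences recurred in size for H2-Aa (1.63), Ear1 (1.93) and Slc16a11 (−1.48), and were near 0 for Psd4 (0.03), Il1r1 (−0.05), Rtp4 (0.04) and Sox4 (0.07). A test of the difference between the 2 effects over all 12 libraries called 0 genes in limma, with 578 at an unadjusted p under 0.05, and 0 in edgeR, with 539. No gene was thus shown to respond differently with the transgene. Only the difference with the transgene also includes Cre, so the test does not compare floxed Tet2 alone.

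Lists can be set side by side in the same way. For the counts with the transgene below, the shares of all genes tested were 8.98% above and 9.72% below without overlap. The interferon list had a median of 0.52 without and 0.09 with the transgene, where 8 of 47 members lay above and 0 below. MHC class II genes had 0.80 and 1.05, with 8 of 9 above under the transgene. G2 and M phase genes had −0.27 and −0.50, with 41 of 48 below, and ribosomal protein genes −0.38 and −0.20, with 52 of 77 below. Histone genes had −0.59 and 0.23. Without KDM6B OE 1 the medians with the transgene were 0.10, 1.12, −0.55, −0.23 and 0.17 in the same order. These medians were not tested against each other, and those with the transgene come from groups that also differ in Cre.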

How the data were processed

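The authors deposited 1 table with a column per library, in a signal unit: CPM, in which the reads of a gene are scaled by the effective size that edgeR gives the library. Multiplied back, 100% of the values were whole numbers of reads to within 1e-06, and column totals of the 6 libraries ran from 975721 to 1076728. Per the submitters' processing notes, TopHat2 2.0.10, HTSeq 0.6.0 and edgeR 3.8.6 were used on build mm10. The sources used here do not give the annotation or whether counting used strand. The lowest total of a gene over the 12 libraries was 10 reads.

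Values were tested with limma 3.58.1 in R 4.3.3 on log2(CPM + 1), with a mean trend, for genes above 1 CPM in at least 3 of the 6 libraries, which set 2797 genes aside. The fit had 4 residual degrees of freedom, and p-values were adjusted by Benjamini and Hochberg over all genes tested. The design had foreseen plain CPM, and the same test was kept. edgeR 4.0.16 and DESeq2 1.42.0 on the recovered reads were alternatives.

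Replicate numbers come from the labels, which do not say what they stand for. Deviations of same-numbered libraries from their group means correlated at 0.313, 0.350 and 0.305 across genes (0.291, 0.350 and 0.301 on autosomes), so the numbers were taken to pair the libraries. The paired fit has 2 residual degrees of freedom.

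The text names Tet2, the genes called with 12 libraries, the 12 largest differences each way among genes at 5 CPM or more in the higher group with groups apart and an unadjusted p under 0.01 (predicted genes and sex markers left out), and per list the 3 smallest p and the most abundant member. Members and lists were chosen with earlier results of these data known. Positions and exon overlaps are from GENCODE M21 (GRCm38), matched by symbol for 14742 of 15366 genes, and promoter windows from RefSeq. The fits were tested on simulated data. Results for a few genes are not reported here.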

Additional observations from a re-analysis of the deposited data

Results flagged for a closer look

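A few named genes were apart in opposite directions without and with the KDM6B transgene, every library of each group included. None of these differences passed limma's test of the difference between the 2 effects over all genes. Il1rl1 stood at 7, 10.9 and 10.9 CPM in Vav Cre and 3.09, 2.55 and 4.57 CPM in Tet2 KO, but at 2.77, 2.62 and 1.64 CPM in KDM6B OE and 3.8, 3.85 and 4.4 CPM in the double lesion. The difference between the effects was 1.87 ± 0.36 on the log2(CPM + 1) scale (adjusted p = 0.753). Hist2h2bb stood at 3.79, 5.90 and 4.53 CPM in KDM6B OE and 6.68, 8.61 and 7.90 CPM in the double lesion, the opposite of its order without the transgene, with a difference of 1.40 ± 0.33 (adjusted p = 0.999). Hist1h2bp stood at 1.19, 1.76 and 1.40 CPM against 2.76, 2.23 and 1.98 CPM, with a difference of 1.40 ± 0.38 (adjusted p = 0.999). Cd37, a tetraspanin of B cells, stood at 89.9, 81.2 and 89.0 CPM in Vav Cre, 79.1, 77.3 and 68.9 CPM in Tet2 KO, 78.2, 79.6 and 81.5 CPM in KDM6B OE and 97.4, 115 and 105 CPM in the double lesion, with a difference of 0.61 ± 0.15 (adjusted p = 0.999).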

How the results depend on the processing

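The count of genes called in Tet2 KO against Vav Cre was 0 on the 6 libraries and stayed at 0 with a pseudocount of 0.25, without a filter, with equal totals, in edgeR and with a sex term. It was 4 with all 12 libraries in the fit, 30 in DESeq2, 34 with the replicate block, 1 with array weights and 1 with the replicate block and all 12 libraries. Leaving out single libraries or pairs gave 0 to 332 calls, 0 on the 6 libraries and 305 without Vav Cre 3 when all 12 entered the fit; those 12-library and pair variants were chosen after seeing the data, and fits that leave out a pair rest on 1 residual degree of freedom. The cause was not tested. Tet2 stood at 29.8% to 36.0% of the control with 1 library left out. The replicate block changed no other call: 0 genes differed between the effect without and the effect with the transgene in every alternative run. Equal totals moved the median of all genes from 0.03 to 0.07. Depth limits genes near 1 CPM, where 1 read is worth up to 0.0463 CPM. A few genes with differences near 0 changed sign. Ifitm3 (0 as reported) was at 0.04 with equal totals, 0.05 with array weights and −0.10 to 0.13 with 1 library left out. Trim28 (−0.06) was at 0.03 with array weights and −0.11 to 0.01 with 1 library left out. Cd34 (0.08) ranged from −0.01 to 0.17 and Cd79a (1.03) from −0.00 without Tet2 KO 2 to 1.79. Scin (0.02) was at −0.04 in edgeR and DESeq2, −0.11 with array weights, and ran from −0.16 to 0.18 with 1 library left out. Of the 114 named genes tested, DESeq2 called 22 and the paired fit 32. The double lesion against KDM6B OE gave 0 calls, and 5 without KDM6B OE 1.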
